A study of Homo sapiens with 3 samples.

Results

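The members examined here, 10 in number, belong to the potassium channel tetramerization domain (*KCTD*) family and were read on arrays of HCT116 cells in which *HOXA5* short RNA, a transcript of the *HOXA6*-*HOXA5* locus, had been silenced. They were *KCTD1*, *KCTD2*, *KCTD3*, *KCTD5*, *KCTD9*, *KCTD10*, *KCTD13*, *KCTD15*, *KCTD20* and *KCTD21*. They are 10 of the 21614 genes that could be named on the array, and they were represented by 17 of its 50599 gene probes. The family was chosen by the ratios of *KCTD9* and *KCTD21* to control siRNA, which were lower with both siRNAs, so these values are given as a description, with no test. HCT116 is an established line of human colon cancer cells. The treatments, each lasting 48 h, were control siRNA and the siRNAs #7 and #8, which target *HOXA5* short RNA, and 400 ng of total RNA from each treatment was labeled with Cy3 and hybridized to 1 array. The deposited array files number the siRNAs otherwise than the sample titles do. The titles were followed here, so the assignment of #7 and #8, and of the sequences printed below, to the arrays rests on them. The arrays of cells overexpressing *HOXA5* short RNA were not analysed here.

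KCTD proteins share a BTB domain, through which many of them assemble into rings and bind cullin-3. Cullin-3 is the scaffold of a ubiquitin ligase that must be modified by NEDD8 to be active, and the BTB protein brings the substrate to it. Members of the family act in this way on a small GTPase, on subunits of G proteins and on a histone deacetylase, while others bind transcription factors or ion channels. Despite the name of the family, its members are not potassium channels.

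The siRNAs used for silencing are shown because all comparisons below rest on them and because they are not independent sequences. Both were designed against the same exon junction, and they share a run of 17 bases, which is printed in capitals in the sequences listed by the study (5′ to 3′).
siRNA #7: gagaAACUGAAAGACAACAUA
siRNA #8: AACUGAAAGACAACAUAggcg
The shared run covers bases 5 to 21 of siRNA #7 and bases 1 to 17 of siRNA #8. Whether either siRNA matches a *KCTD* transcript was not tested.

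The level of a probe is its log2 intensity relative to the 75th percentile of all gene probes on the same array, so that a level of 0 lies at that percentile. Each condition was read on 1 array, so no difference can be set against replicates, and the only error available is the spot-to-spot SD, taken from probes printed 10 times on the same array. This SD leaves out the variation between cultures. All 3 arrays lay on 1 slide at different positions, so position and treatment cannot be told apart. Between 19073 and 20475 gene probes were well above background on an array, and 18121 were so on all 3 arrays, representing 12031 genes. Before scaling, the *HOXA5* probe read 84.9 on the control array, 52.6 under siRNA #7 and 58.5 under siRNA #8. After scaling, its log2 ratios to control siRNA were -0.36 with siRNA #7 (spot-to-spot SD 0.25) and -0.23 with siRNA #8 (spot-to-spot SD 0.26). Intensities given below are likewise before scaling. Whether this probe tells the short RNA apart from *HOXA5* mRNA was not tested. Of 10 markers of colon epithelium, 9 were well above background on all 3 arrays, the exception being *VIL1*. By contrast, 7 of 9 markers of leukocytes, endothelium and fibroblasts were above background on no array. The exceptions were *COL1A1*, well above background on all 3 arrays, and *VWF*, which was so on the siRNA #7 and siRNA #8 arrays only. When the arrays were scaled on the E1A spike-in controls instead, the median ratio over the passing probes shifted by -0.33 on the log2 scale with siRNA #7 and by -0.24 with siRNA #8, and ratios of about this size therefore depend on the scaling.

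For 9 of the 10 members a probe exceeded background on every array, and for *KCTD10* none did. No member spot carried an outlier flag, and each probe was printed on 1 spot. By their brightest passing probe, *KCTD9* and *KCTD21* were at least 2-fold lower with both siRNAs, as were 0.158% of the 12031 genes. This contrast chose the family, so nothing is read from that share. At 1.5-fold the same 2 members were lower with both siRNAs, beside 1.67% of genes. The other 7 measured members lay within 2-fold of control with each siRNA. The *KCTD10* probe, which could be measured only with the siRNAs, lay in the opposite direction from *KCTD9* and *KCTD21*.

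**Figure D1:**
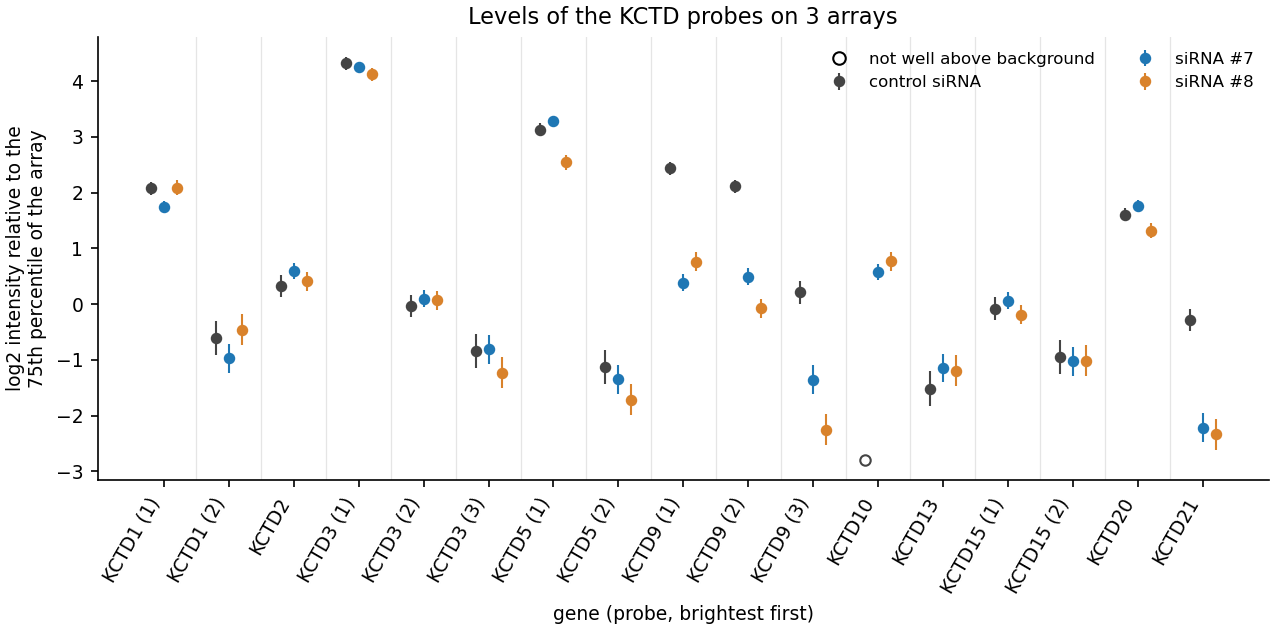
Level of each *KCTD* probe (y axis, log2 intensity relative to the 75th percentile of the array) on the control siRNA, siRNA #7 and siRNA #8 arrays; probes of 1 gene are numbered from the brightest, bars are the spot-to-spot SD and the open circle is not well above background. The control points of *KCTD9* (all 3 probes) and *KCTD21* stand above both siRNA points, while *KCTD10* shows the reverse.

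*KCTD9* encodes a BTB protein that also carries pentapeptide repeats. For its brightest probe the level was 2.44 on the control array but 0.38 under siRNA #7 and 0.76 under siRNA #8. The corresponding intensities were 285.6, 54.8 and 72.6, so both siRNA arrays were far below the control array. The probe was 4.15-fold lower with siRNA #7 (log2 ratio -2.05, spot-to-spot SD 0.19) and 3.19-fold lower with siRNA #8 (log2 ratio -1.67, spot-to-spot SD 0.21).

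The levels of the second *KCTD9* probe were 2.11 on the control array, 0.49 with siRNA #7 and -0.07 with siRNA #8. The ratio on the log2 scale was -1.62 with siRNA #7 and -2.19 with siRNA #8, each with a spot-to-spot SD near that of the first probe (0.19 and 0.21). The third and dimmest probe had levels of 0.21, -1.35 and -2.25, with log2 ratios of -1.56 (spot-to-spot SD 0.33) and -2.46 (spot-to-spot SD 0.34). Its intensities were 61.1, 16.5 and 8.99. The last is near the lowest intensity called well above background with siRNA #8 (6.98). All 3 probes, which lie on distant parts of the array, thus gave the same direction with both siRNAs, at folds between 2.96 and 5.50. Probes of 1 gene share the RNA of the same cultures and are not replicates of the treatment. Of the 459 genes with 3 or more passing probes, *KCTD9* was the single gene for which all of them were at least 2-fold lower with both siRNAs, or 0.218%, a value from the contrast that chose it.

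The siRNAs could not be ordered by their effect on *KCTD9*. The brightest probe was higher with siRNA #8 than with siRNA #7 (log2 difference 0.38, spot-to-spot SD 0.23), whereas the second probe was lower (log2 difference -0.57, spot-to-spot SD 0.23) and so was the third (log2 difference -0.90, spot-to-spot SD 0.38). The third probe was close to background with siRNA #8. The RefSeq table lists 6 pseudogenes of *KCTD9*, and whether their transcripts contribute to these probes was not tested.

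*KCTD21* encodes a cullin-3 adaptor, also known as KCASH2, that promotes the degradation of the histone deacetylase HDAC1 and thereby restrains Hedgehog signaling. The level of its single probe was -0.29 on the control array, -2.22 with siRNA #7 and -2.34 with siRNA #8. It was 3.81-fold lower with siRNA #7 (log2 ratio -1.93, spot-to-spot SD 0.33) and 4.15-fold lower with siRNA #8 (log2 ratio -2.05, spot-to-spot SD 0.34). Both siRNA arrays were lower than the control array and close to each other, with a log2 difference of -0.12 between siRNA #8 and siRNA #7 (spot-to-spot SD 0.38). The probe was dim, with intensities of 43.3, 9.05 and 8.47, the latter near the lowest intensity called well above background on these arrays (6.75 with siRNA #7 and 6.98 with siRNA #8). With normexp background correction, which adds an offset of 50 and so draws the ratios of dim probes toward 0, *KCTD21* stayed lower but no longer by 2-fold (log2 ratios -0.40 and -0.41). Under that correction the brightest *KCTD9* probe remained past 2-fold with both siRNAs (log2 ratios -1.21 and -1.05), whereas its dimmest probe did not (-0.58 and -0.77).

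**Figure D2:**
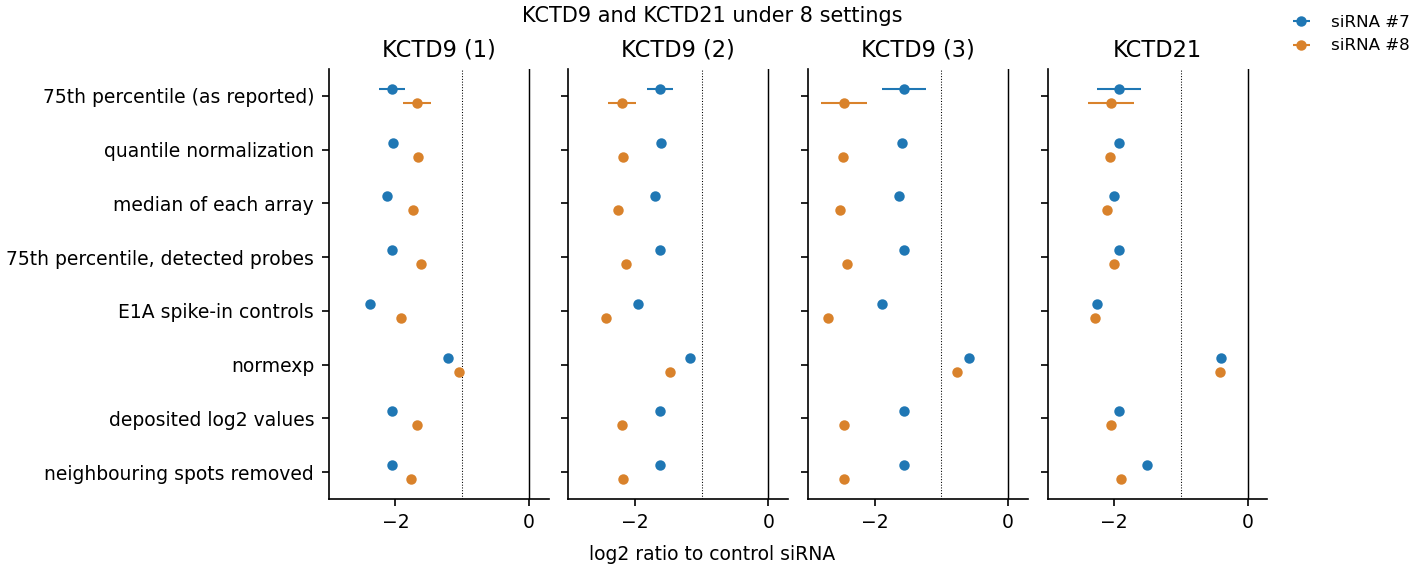
Log2 ratio to control siRNA (x axis) of the *KCTD9* probes and of *KCTD21* under 8 settings of scaling, background and position (y axis), with the spot-to-spot SD shown for the setting reported; the dotted line marks 2-fold. All points lie below 0, and normexp brings *KCTD21* to -0.40 and -0.41.

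*KCTD10* and *KCTD13* are close relatives that, as cullin-3 adaptors, direct the small GTPase RHOA to degradation. The single *KCTD10* probe was not well above background with control siRNA, with an intensity of 7.61, but was so with siRNA #7 (intensity 62.7) and with siRNA #8 (intensity 73.0). As measured in the scaling reported, it was 10.4-fold higher with siRNA #7 and 11.8-fold higher with siRNA #8. These folds set each siRNA level against the measured control level, which exceeded the lowest level called well above background. They are not lower bounds, and they changed with the setting. With normexp the log2 ratios as measured were 1.07 and 1.14, below those in the scaling reported (3.37 and 3.56). The spots around this probe moved in the same direction. Of its 12 passing neighbours within 3 rows and 3 columns, 4 were at least 2-fold higher with both siRNAs, against 0.927% of passing probes on the whole array, and the median log2 ratio of the neighbours was 1.05 with siRNA #7 and 0.82 with siRNA #8. Removal of the neighbours means here that their median deviation on each array was subtracted from the level of the probe. After this removal, the log2 ratios as measured were 2.59 with siRNA #7 and 2.85 with siRNA #8. None of these ratios is exact, since the control value was not well above background. Whether the surroundings of the spot account for the remaining difference was not tested.

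The spots around *KCTD9* and *KCTD21* did not move with them to that extent. The neighbours of the 3 *KCTD9* probes numbered 15, 20 and 21, none was at least 2-fold lower with both siRNAs (0.193% of passing probes were), and their median log2 ratios lay between -0.21 and 0.20. Around the brightest *KCTD9* probe, however, 2 of the 15 neighbours were at least 2-fold higher with both siRNAs, against the same 0.927%, which is opposite to the direction of the probe itself. *KCTD21* had 18 neighbours whose median log2 ratio was -0.35 (siRNA #7) and -0.19 (siRNA #8). None of them was at least 2-fold lower with both siRNAs. With siRNA #7 alone, however, neighbours reached -2.02, -1.12 and -1.07, beside 1.72% of all genes at least 2-fold lower. Whether the surroundings of the spot contribute to the *KCTD21* ratio with siRNA #7 was not tested. After removal of the neighbours, *KCTD21* had log2 ratios of -1.51 and -1.90, still past 2-fold.

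**Figure D3:**
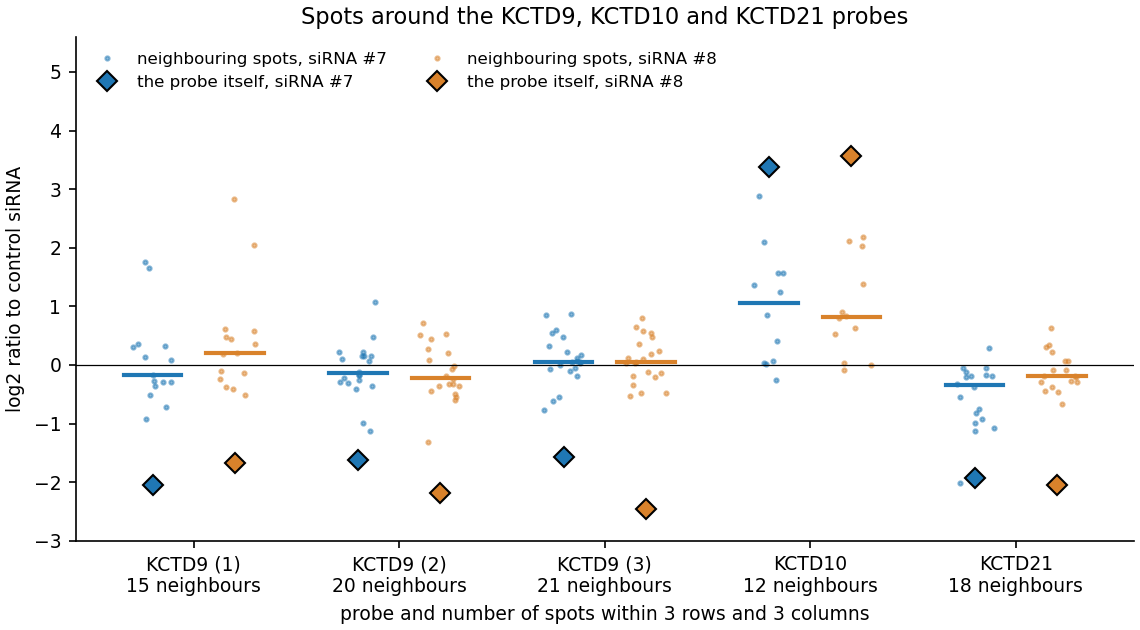
Log2 ratio to control siRNA (y axis) of the passing spots within 3 rows and 3 columns of each probe (dots, with their median as a line) and of the probe itself (diamonds). The *KCTD9* and *KCTD21* diamonds lie below the median of their surroundings, and the spots around *KCTD10* are themselves shifted upward, with medians of 1.05 and 0.82 (the *KCTD10* diamonds use a control value not well above background).

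*KCTD13*, the relative of *KCTD10*, had a dim probe, at a level of -1.51 on the control array, -1.15 with siRNA #7 and -1.20 with siRNA #8. Its log2 ratios of 0.37 (spot-to-spot SD 0.40) and 0.32 (spot-to-spot SD 0.41) were within the error of a single spot. *TNFAIP1*, the remaining member of this subgroup, named after its values were seen, had log2 ratios of -0.29 (spot-to-spot SD 0.15) and -0.46 (spot-to-spot SD 0.17). As measured, *KCTD10* and *KCTD13* were higher and *TNFAIP1* lower with both siRNAs. Whether the 3 relatives share a direction cannot be told, since *KCTD13* was within this error and *KCTD10* had no control value well above background.

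*KCTD2* and *KCTD5* are closely related cullin-3 adaptors, and KCTD5 promotes the degradation of G protein beta-gamma subunits. For the brightest *KCTD5* probe the level was 3.13 on the control array, 3.28 with siRNA #7 and 2.55 with siRNA #8. It was lower with siRNA #8 (log2 ratio -0.58, spot-to-spot SD 0.18), and not with siRNA #7 (log2 ratio 0.15, spot-to-spot SD 0.15), a value that became negative under normexp (-0.18) and under the spike-in scaling (-0.18). The second *KCTD5* probe gave -0.59 with siRNA #8 (spot-to-spot SD 0.41) and -0.22 with siRNA #7 (spot-to-spot SD 0.40). The siRNAs differed from each other by -0.73 on the brightest probe (spot-to-spot SD 0.16). The *KCTD2* probe had levels of 0.33, 0.59 and 0.41 in the same order of arrays, and its log2 ratios of 0.27 and 0.08 (spot-to-spot SD 0.25 and 0.26) both became negative under the spike-in scaling (-0.061 and -0.16).

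*KCTD1* and *KCTD15* encode nuclear proteins that repress transcription factors of the AP-2 family. For the brightest *KCTD1* probe the level was 2.08 on the control array, 1.74 with siRNA #7 and 2.09 with siRNA #8. It was lower with siRNA #7 (log2 ratio -0.34, spot-to-spot SD 0.16) and near control with siRNA #8 (0.01, spot-to-spot SD 0.18). The second *KCTD1* probe gave -0.36 (spot-to-spot SD 0.40) and 0.15 (spot-to-spot SD 0.41). Both probes therefore placed siRNA #7 lowest, in contrast to *KCTD5*. The brightest *KCTD15* probe had levels of -0.08, 0.06 and -0.19, and the second one of -0.94, -1.02 and -1.02. None of the *KCTD15* log2 ratios, from -0.11 to 0.14, exceeded its spot-to-spot SD.

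*KCTD3*, whose product binds the pacemaker channel HCN3, had 3 passing probes. The brightest was at 4.32 on the control array, 4.25 with siRNA #7 and 4.13 with siRNA #8, giving log2 ratios of -0.06 (spot-to-spot SD 0.15) and -0.19 (spot-to-spot SD 0.17). Over the 3 probes the log2 ratios ranged from -0.06 to 0.13 with siRNA #7 and from -0.40 to 0.11 with siRNA #8, so that the probes did not share a direction. *KCTD20*, described as a positive regulator of Akt, had levels of 1.61, 1.76 and 1.32. Its log2 ratio was 0.16 with siRNA #7 (spot-to-spot SD 0.16), which became -0.17 under the spike-in scaling, and -0.29 with siRNA #8 (spot-to-spot SD 0.18).

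Over the 9 members with a passing probe, the median log2 ratio was 0.14 with siRNA #7 and -0.19 with siRNA #8, beside 0.016 and 0.0072 over all 12031 genes. The mean was -0.37 and -0.50, so that with siRNA #7 the median and the mean differ in sign. With *KCTD10* added at its ratios as measured, the medians over the 10 members were 0.15 and -0.15. Of the 9 members, 3 were lower by any size with both siRNAs (*KCTD3*, *KCTD9* and *KCTD21*), as were 30.3% of all genes, and 2 were higher with both (*KCTD2* and *KCTD13*), as were 32.8%. *KCTD9* and *KCTD21*, whose ratios chose the family, are 2 of the 3 members lower with both siRNAs. They also enter the medians and the mean. Nothing is therefore read from the shares of the members. The median with siRNA #7 became negative (-0.18) under normexp and under the spike-in scaling.

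**Figure D4:**
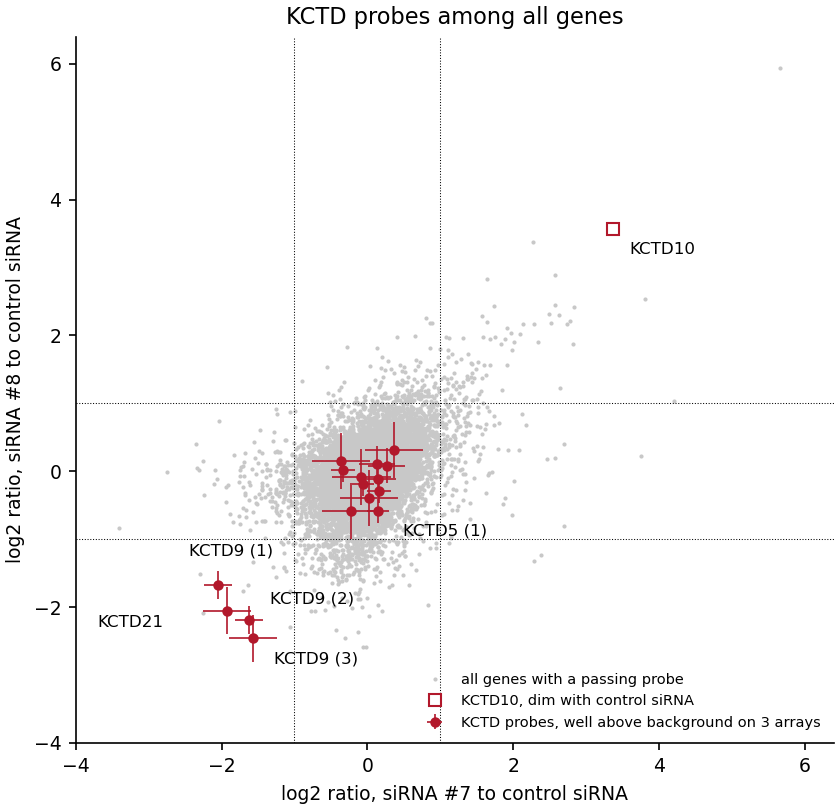
Log2 ratio to control siRNA with siRNA #7 (x axis) and with siRNA #8 (y axis) for the 12031 genes with a passing probe (grey) and for each *KCTD* probe (red, with spot-to-spot SD); dotted lines mark 2-fold, and both axes share 1 control array. The *KCTD9* probes and *KCTD21* lie at the lower left, *KCTD10* at the upper right (open square, against a control value not well above background) and the other members within 2-fold of 0.

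Among all genes, the patterns closest to *KCTD9* and *KCTD21* were found by the distance between pairs of log2 ratios over the 3 arrays. For *KCTD9* these were *SPRING1* (distance 0.29), a regulator of the SREBP pathway, *TAF9B* (0.36), a paralog of a TFIID subunit, and *PALM3* (0.42). For *KCTD21* they were *ZNF283* (0.32), a zinc finger gene, and again *TAF9B* (0.37) and *PALM3* (0.47). Each of these 4 genes had 1 passing probe, and the distances are of the order of the spot-to-spot SD. *ZNF283*, at -2.25 and -2.09 on the log2 scale, was the only other gene at least as low as *KCTD21* with both siRNAs and the only other one at least as low as *KCTD9*, each time 0.0166% of genes with the member itself included. All of these values share the control array. The shares come from the contrast that chose *KCTD9* and *KCTD21*, so nothing is read from them.

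The 14 other genes of the family on the list all had a probe, and 9 had one that passed. Of these, 8 were lower by any size with siRNA #7 and 5 with siRNA #8, beside 48.3% and 49.2% of all genes. Their median log2 ratio was -0.29 with siRNA #7 and -0.12 with siRNA #8, and no gene passed 2-fold with either siRNA (1 did with siRNA #7 under the spike-in scaling), beside 1.72% of all genes at least 2-fold lower with siRNA #7 and 3.03% with siRNA #8, and 2.05% and 1.95% at least 2-fold higher. Lowest by the mean of both ratios was *KCTD12*, an auxiliary subunit of GABA-B receptors, with -0.15 and -0.72 (spot-to-spot SD 0.19 and 0.21). Highest was *SHKBP1*, a relative of *KCTD3*, with -0.45 and 0.46 (spot-to-spot SD 0.19 and 0.18), opposite directions with the siRNAs, which became -0.10 and 0.26 after removal of neighbouring spots. The relatives of *KCTD21* that also restrain Hedgehog signaling, named after their values were seen, did not show its size of difference. *KCTD6* had log2 ratios of -0.19 and -0.34 (spot-to-spot SD 0.16 and 0.21), and *KCTD11* had -0.58 and 0.10 (spot-to-spot SD 0.33 and 0.26). *KCTD4*, *KCTD7*, *KCTD8* and *KCTD16* were above background on no array and *KCTD18* on the control array only.

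All 19 genes of the cullin-3 ligase core, its NEDD8 pathway and the COP9 signalosome passed. Of these, 17 were lower by any size with siRNA #7 and 10 with siRNA #8, beside 48.3% and 49.2% of all genes, and their medians were -0.31 and -0.011, the latter becoming positive under quantile normalization (0.024), the percentile over detected probes (0.042) and removal of neighbouring spots (0.052). None passed 2-fold with either siRNA, beside 1.72% and 3.03% of all genes lower and 2.05% and 1.95% higher, although 2 were past 2-fold lower with siRNA #7 under the spike-in scaling. *CUL3* itself, named after its values were seen, had log2 ratios of -0.36 (spot-to-spot SD 0.14) and -0.01 (spot-to-spot SD 0.15). Lowest was *UBA3*, a subunit of the NEDD8-activating enzyme, with -0.28 and -0.66 (spot-to-spot SD 0.25 and 0.34). Highest was *COPS8*, a signalosome subunit, with 0.94 and 0.81 (spot-to-spot SD 0.16 and 0.18), but its second passing probe gave -0.20 and -0.26.

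Of the 24 other BTB adaptors of cullin-3, 21 passed, with medians of 0.017 and -0.015, close to those of all genes, the first of which turned negative under the median of each array, the spike-in scaling and normexp, while the second turned positive under quantile normalization (0.022) and the percentile over detected probes (0.038). Past 2-fold was *KLHL9* alone, with 1.11 under siRNA #8 and 0.18 under siRNA #7 (spot-to-spot SD 0.17 and 0.15), beside 1.95% of all genes at least 2-fold higher with siRNA #8. Under the spike-in scaling and under normexp it no longer passed. Other adaptors were past 2-fold lower with siRNA #8 in some settings, 2 under the spike-in scaling and 1 under the median of each array. In the scaling reported, 3.03% of all genes were so. With both siRNAs 6 were lower and 7 were higher by any size, near the 30.3% and 32.8% of all genes. *KLHL2*, an adaptor for WNK kinases, was lowest with -0.61 and -0.58 (spot-to-spot SD 0.19 and 0.21). *SPOP*, an adaptor often mutated in prostate cancer, was highest with 0.83 and 0.74 (spot-to-spot SD 0.16 and 0.18), which became 0.55 and 0.55 after removal of the neighbouring spots.

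Of 15 substrates and partners of the members, 11 passed, with medians of -0.10 and -0.074. *RHOA* and *HDAC1*, named after their values were seen, are the substrates of KCTD10 or KCTD13 and of KCTD21. *RHOA* had log2 ratios of -0.10 and -0.08 (spot-to-spot SD 0.14 and 0.15), while *HDAC1*, read from 10 spots, had -0.07 and 0.30 (spot-to-spot SD 0.04 and 0.05). Lowest in this list was *PCNA*, the sliding clamp of DNA replication, with -0.10 and -1.07 (spot-to-spot SD 0.14 and 0.15), and its 3 passing probes ranged from -0.87 to -0.10 with siRNA #7 and from -1.42 to -0.84 with siRNA #8. It was the single gene of the list past 2-fold, beside 3.03% of all genes at least 2-fold lower with siRNA #8, and after removal of neighbouring spots none was. Highest was *AKT2*, an Akt kinase, with 0.35 and 0.41 (spot-to-spot SD 0.15 and 0.17), while its second probe gave -0.28 and -0.77 and its dimmest gave 0.16 and 0.34.

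Of 11 Hedgehog pathway genes, 5 passed, with medians of -0.07 with each siRNA. The 5 include *HDAC1*, which is also in the list of substrates and partners and whose ratio is the median with siRNA #7. *GLI2*, a transcription factor of the pathway, was lowest with log2 ratios of -0.66 (spot-to-spot SD 0.33) and -0.62 (spot-to-spot SD 0.34), which shrank to -0.26 and -0.18 under normexp. Its intensity was 45.3 on the control array, 22.9 under siRNA #7 and 23.9 under siRNA #8. *SMO*, the transducer of the pathway, was highest with -0.04 and 0.30 (spot-to-spot SD 0.16 and 0.17). None of the 5 was past 2-fold with either siRNA, beside 1.72% and 3.03% of all genes lower and 2.05% and 1.95% higher. Under the spike-in scaling, however, 1 was past 2-fold lower with siRNA #7. *STK36*, named after its values were seen, had no passing probe. It was well above background on the siRNA arrays only, with intensities of 6.38 (control), 19.9 (siRNA #7) and 13.2 (siRNA #8).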

How the data were processed

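Per the file headers, the spot intensity on each of the 3 one-color arrays was background-subtracted by Agilent Feature Extraction 11.5.1.1 and left unscaled across arrays. A second deposited table holds log2 values of 21189 probes which, set against the intensities, differ between arrays by the 75th percentile and are centred on the median of each probe (slope 1.00, column medians 0). The members and gene lists were chosen with earlier results of these data known.

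In Python 3.11.15 (numpy 2.4.6, pandas 2.3.3), outlier spots were left out, the spots of each probe were averaged as log2 intensities, and each array's 75th percentile over gene probes was set to 0. To pass, a probe had to reach the 20th percentile on 2 or more arrays and be well above background on each of the 3. Accessions were matched without versions to RefSeq (GRCh38.p14), which named 30004 probes; the array design names hg19, so no coordinates are given. Each gene was read from its brightest passing probe. The spot-to-spot SD came from 604 to 620 probes printed 10 times, in 6 bins of brightness, and the SD of a ratio adds the variances of its arrays. No comparison was tested, since each condition has 1 array, and this number limits the precision. Steps were tested on simulated data.

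Named were all members, the highest and lowest of each list by mean ratio, list genes past 2-fold with both siRNAs, and the 3 nearest patterns. Alternatives were array medians, quantile normalization, the percentile over detected probes, the 10 E1A spike-in probes, normexp (limma 3.58.1, R 4.3.3, offset 50, on median signals), the deposited log2 values, removal of neighbouring spots, the mean of a gene's probes, no background filter and a 1.5-fold threshold. Removal of neighbouring spots dropped no spot and subtracted the median deviation of the neighbours on each array from the spot's own level.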

Additional observations from a re-analysis of the deposited data

How the results depend on the processing

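No paired analysis was possible because no treatment was hybridized more than once. The comparison of neighbouring spots, the measured folds of *KCTD10* and the genes beside the members were chosen after seeing the data. *KCTD9* and *KCTD21* were lower with both siRNAs under each of the 9 alternatives. Some of these left the values unchanged: no background filter for both genes, and the mean of the probes for *KCTD21*, which has 1 probe. With scaling on the spike-in controls, the log2 ratios of *KCTD9* were -2.38 with siRNA #7 and -1.91 with siRNA #8, 8 members (3 as reported) were below control with both, as were 64.5% of all genes under that scaling (30.3% as reported), and the member medians were -0.18 and -0.43. *KCTD2* turned to -0.061 with siRNA #7. With normexp, *KCTD9* had -1.21 and -1.05, *KCTD21* -0.40 and -0.41, 1 member (2 as reported) was past 2-fold with both, 5 members were lower with both by any size (44% of all genes), and the member median with siRNA #7 was -0.18. With the mean of the passing probes, *KCTD9* had -1.75 and -2.11, and its difference between siRNA #8 and siRNA #7 turned from 0.38 to -0.36, since the dimmer probes lie the other way. With removal of neighbouring spots, *KCTD21* had -1.51 with siRNA #7. Signal over background limits *KCTD21*, *KCTD13* and *KCTD10*, the last measured above background on the siRNA arrays only. At 1.5-fold, 2 members were lower with both siRNAs, as at 2-fold.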

Other observations

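The genes next to *KCTD9* and *KCTD21* in the genome, chosen after seeing the data, were read as a description of their surroundings, from the order of protein-coding genes in the RefSeq table. *KCTD9* lies between *GNRH1*, which encodes the gonadotropin-releasing hormone precursor, and *CDCA2*, which encodes a regulatory subunit of protein phosphatase 1 in mitosis. *GNRH1* had log2 ratios to control siRNA of 0.07 with siRNA #7 (spot-to-spot SD 0.40) and -0.35 with siRNA #8 (spot-to-spot SD 0.41), both within the error of a single spot. *CDCA2* intensities before scaling were 863.1, 490.3 and 428.0 in the order control, siRNA #7 and siRNA #8. After scaling, its log2 ratios were -0.49 (spot-to-spot SD 0.15) and -0.71 (spot-to-spot SD 0.17). *CDCA2* was thus lower with both siRNAs, by less than 2-fold.

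*KCTD21* lies between *ALG8*, a glucosyltransferase gene of N-glycan assembly, and *USP35*, a deubiquitinase gene. *ALG8* had log2 ratios of -0.15 (spot-to-spot SD 0.14) and -0.01 (spot-to-spot SD 0.15), and *USP35* of -0.29 (spot-to-spot SD 0.06) and 0.43 (spot-to-spot SD 0.06). Neither neighbour showed a difference of the size seen for *KCTD21*.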
